A study of Mus musculus with 3 samples.

Results

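The expression of 9 growth factor and receptor genes was followed through the mouse lung: the secreted factors Spp1, Igf1, Hgf, Tgfb1, Pdgfa, Pdgfb and Vegfa, and the receptors Met and Igf1r. The genes were chosen by name, and all 9 were found among the 32285 genes of the count tables. Single-cell RNA sequencing with unique molecular identifiers (UMIs) counted transcripts at their 3′ ends in 3 libraries, 1 for each group. The series asks how tumours driven by mutant EGFR, a growth factor receptor, differ when macrophages lack PPARγ, a fatty acid-sensing nuclear receptor needed by alveolar macrophages.

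All mice carried Ccsp-rtTA;TetO-EGFRL858R, in which the club cell promoter Ccsp drives a doxycycline-responsive activator of the L858R form of EGFR, and the labels give doxycycline chow at 625 ppm and an age of 16 to 20 weeks. The WT healthy library has that genotype alone. The WT tumour library adds Pparγfl/fl, and the PPARγ-/- tumour library adds Pparγfl/fl with Csf1rCre, whose promoter is active across monocytes and macrophages and not in alveolar macrophages alone. What kept the lungs of the healthy group free of tumour is not given in the sources used here. Each library pooled cells of 3 mice, sorted as alveolar macrophages, other CD11b+ macrophages, T cells and epithelial cells and mixed in equal proportion, so the sort sets how many cells of each kind were read.

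Macrophages supply growth factors to their neighbours. HGF binds the receptor MET on epithelial cells, IGF-1 binds IGF1R on many cells, PDGF-A and PDGF-B act on PDGF receptors of fibroblasts and pericytes, and VEGF-A acts on the endothelial receptors encoded by Kdr and Flt1. TGF-β1 is secreted in a latent form that integrins release, and osteopontin, the product of Spp1, binds integrins and CD44. In the lung, PDGF-A and VEGF-A come largely from epithelium, PDGF-B largely from endothelium, and Spp1 marks macrophages of injured and tumour-bearing tissue.

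The libraries held 30454790 to 46148658 UMIs, and 2894 to 4995 cells per library remained after filters on counts, mitochondrial UMIs and doublets. Cells formed 27 clusters, drawn without the 9 genes, and classes of at least 50 cells in a library are described. The largest cluster of non-dividing cells with alveolar macrophage markers was a different one in each library, with 839, 963 and 1156 cells. These are called the main macrophages, and values in triplets are given in the order WT healthy, WT tumour, PPARγ-/- tumour. The summed level of 12 alveolar macrophage markers in them was 23590, 22977 and 13814 CPM (UMIs of a gene scaled to a fixed total of UMIs in the class), and that of 14 interstitial macrophage markers was 64.6, 82.5 and 19078 CPM. In the PPARγ-/- cluster 6 of the 12 alveolar and 7 of the 14 interstitial markers were raised over the median cluster, so it carried part of both sets. Apoe, C1qa and C1qb of the interstitial list were among its leading genes, and it is not called alveolar. Alveolar macrophages outside the main and dividing clusters formed a further class, the other alveolar macrophages, of 80 cells in WT healthy and 81 in PPARγ-/- tumour. Endothelial cells were present although the labels name no gate for them. The healthy cells had 1229 CPM of Xist against 0.17 and 0.29 CPM in the tumour libraries, while the Y-linked Ddx3y stood at 0.13, 81.5 and 75.1 CPM. Per the labels, male and female mice entered at about equal numbers.

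The start regions of Spp1 and Igf1 are shown because these 2 genes had the largest UMI counts among the genes that differed between libraries. RefSeq (GRCm38.p6) gives the 250 bases before the start site, 5′ to 3′, with a match to the AP-1 motif in capitals. The Spp1 region, chr5:104434861-104435110 on the plus strand, ends next to the start of the gene at 104435111. The Igf1 region, chr10:87860861-87861110 on the plus strand, lies inside the wider GENCODE span of Igf1, which runs from 87858265 to 87937042.
Spp1: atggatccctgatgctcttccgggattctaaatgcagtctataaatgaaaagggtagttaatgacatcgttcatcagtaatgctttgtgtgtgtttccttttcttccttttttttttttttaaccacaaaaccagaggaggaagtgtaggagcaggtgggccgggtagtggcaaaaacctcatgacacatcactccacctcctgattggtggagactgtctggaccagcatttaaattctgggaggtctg
Igf1: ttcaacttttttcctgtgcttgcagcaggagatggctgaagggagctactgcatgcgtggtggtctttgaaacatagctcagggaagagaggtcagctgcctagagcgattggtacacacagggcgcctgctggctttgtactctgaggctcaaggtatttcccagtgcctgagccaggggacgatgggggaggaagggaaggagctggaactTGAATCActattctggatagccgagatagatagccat
The AP-1 motif TGANTCA was searched on both strands over 300 bases, from 250 before to 50 after the start. It matched once in Igf1, at -37 from the start site, and once in Met, at -54, and in 7.81% of all 32851 promoters. The DR1 motif AGGTCANAGGTCA, known to bind PPARγ with its partner RXR, was searched in the same way and matched in none of the promoters of 8 of the 9 genes and in 0.0396% of all promoters. Pdgfb had no promoter entry and was searched for neither motif. A match is a stretch of letters and not a bound site.

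Spp1 and Igf1 were read mainly in macrophages, and in the main macrophages both were lowest in WT healthy and highest in PPARγ-/- tumour. In the main macrophages Spp1 was at 712, 2236 and 5212 CPM. The 3 counting intervals lie far apart, from 696 to 728, 2212 to 2261 and 5180 to 5244 CPM. Spp1 was 3.14-fold higher in WT tumour than in WT healthy (log2 1.65, 95% counting interval 1.62 to 1.69) and 2.33-fold higher in PPARγ-/- tumour than in WT tumour (log2 1.22, interval 1.20 to 1.24). Each group is a single library, so conditions could not be tested against each other: intervals cover counting error only, not the spread between mice, and a gene is called higher or lower only as a rule of size, where at least 20 UMIs were read, the ratio passed 1.5-fold and its interval excluded 1. With a minimum of 2000 UMIs per cell the PPARγ-/- macrophages split into clusters of 637 and 508 cells. The log2 ratio of Spp1 between the tumours was then 0.63, from the 637 cells alone. Spp1 led the genes of the 508 cells that were left out.

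The share of cells with an Spp1 UMI at a fixed depth follows the level, so it does not by itself show a spread over more cells. When every cell was thinned to 1000 UMIs, 35.5%, 78.7% and 81.8% of main macrophages kept an Spp1 UMI (without thinning 85.7%, 98.7% and 99.0%). The thinned shares in T cells, which should lack the transcript, were 0.76%, 4.32% and 7.05%. Median depth before thinning was 12754, 14806 and 16494 UMIs in the main macrophages and 3759, 3027 and 2693 UMIs in T cells. The 10% of main macrophages with the most Spp1 held 46.8%, 31.4% and 40.1% of its UMIs, so no small set of cells held nearly all of it.

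Igf1, the gene for insulin-like growth factor 1, was at 27.1 CPM (24.2 to 30.4), 69.8 CPM (65.5 to 74.2) and 483 CPM (473 to 493) in the main macrophages. It was 2.57-fold higher in WT tumour than in WT healthy (log2 1.36, interval 1.17 to 1.55, and 2.48 with each library clustered on its own) and 6.92-fold higher in PPARγ-/- tumour than in WT tumour (log2 2.79, interval 2.70 to 2.89). The thinned share of cells with an Igf1 UMI was 2.50%, 5.92% and 36.2%, against at most 0.74% in T cells (without thinning 17.3%, 36.0% and 96.8% of main macrophages). Interstitial macrophages, the C1q-rich macrophages of the lung tissue, held Igf1 in every library at 259, 195 and 176 CPM. They stood above the main macrophages in both WT libraries and below them in PPARγ-/- tumour, in each case with intervals that do not overlap.

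Hgf, which encodes the ligand of MET, was at 15.2, 23.2 and 48.1 CPM in the main macrophages. It was 1.53-fold higher in WT tumour than in WT healthy, just past the rule of size (log2 0.61, interval 0.34 to 0.89), and 2.07-fold higher in PPARγ-/- tumour than in WT tumour (log2 1.05, interval 0.87 to 1.23). The former call was lost under 5 alternatives, with log2 ratios of 0.20 to 0.57. The main macrophages were not the class with the highest Hgf: endothelial cells stood at 63.1, 54.5 and 63.0 CPM and nonclassical monocytes, the patrolling blood monocytes, at 47.9, 49.1 and 60.4 CPM, and these 2 classes had overlapping intervals in every library. T, B and AT2 cells had at most 3 Hgf UMIs in any library.

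Tgfb1, the gene for TGF-β1, passed the rule of size in neither comparison of the main macrophages. The main macrophages had 287, 248 and 206 CPM, ratios of 0.86 (log2 -0.21, interval -0.28 to -0.14) and 0.83 (log2 -0.26, interval -0.33 to -0.20). Classical monocytes, the inflammatory blood monocytes, had the highest level in every library, at 462, 452 and 501 CPM. Nonclassical monocytes came next at 331, 443 and 379 CPM, and in WT tumour the intervals of these classes overlapped.

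**Figure D1:**
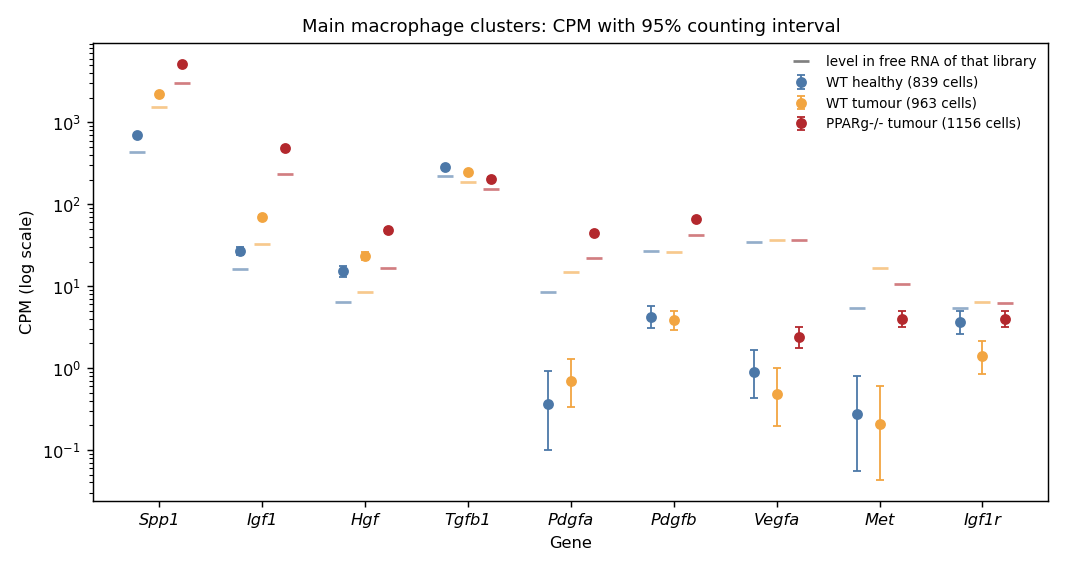
CPM (log axis) of the 9 genes in the main macrophages of each library. Points show the summed UMIs of all cells with exact Poisson 95% intervals, and short bars the level in the free RNA of the same library. Spp1, Igf1 and Hgf step upward from WT healthy to PPARγ-/- tumour, while Pdgfa and Pdgfb lie below the free RNA level in both WT libraries and above it in PPARγ-/- tumour.

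The 2 PDGF ligands separated the PPARγ-/- macrophages from both WT libraries. Pdgfa was read with 4, 10 and 879 UMIs in the main macrophages, at 0.36, 0.69 and 44.8 CPM. Only the PPARγ-/- level was above that of the free RNA of its library (22.2 CPM). The ratio of PPARγ-/- tumour to WT tumour was 64.5-fold (log2 6.01, interval 5.13 to 7.08), and 39.8% of PPARγ-/- cells had a Pdgfa UMI before thinning. Pdgfb was at 4.25 CPM (47 UMIs), 3.81 CPM (55 UMIs) and 65.3 CPM (1282 UMIs). Its ratio was 0.90 between the WT libraries (log2 -0.16, interval -0.75 to 0.44, called lower at -0.76 with each library clustered on its own) and 17.1-fold between the tumours (log2 4.10, interval 3.71 to 4.51). After thinning, 0%, 0% and 4.07% of main macrophages had a Pdgfa UMI and 0.83%, 0.31% and 5.54% a Pdgfb UMI. At the thinned depth a count of 0, taken as up to 3 cells, allows a share of cells with a Pdgfa UMI of up to 0.36% in WT healthy and 0.31% in WT tumour, while without thinning 0.24% and 1.04% had one.

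The size of both PDGF ratios depended on which macrophages were joined. Interstitial macrophages already held Pdgfa at 42.8 and 55.4 CPM and Pdgfb at 167 and 337 CPM in the WT libraries, and with all macrophage clusters joined the log2 ratios of PPARγ-/- tumour to WT tumour were 2.89 for Pdgfa and 0.84 for Pdgfb. Joined, Pdgfb was also called higher in WT tumour than in WT healthy (log2 1.59). Subtracting 10% of the free RNA profile gave log2 ratios of 7.68 and 5.70. The Pdgfa value is set by the floor of 3 counts, since the subtraction left no Pdgfa UMI in WT tumour.

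Vegfa, the main angiogenic ligand, was barely read in macrophages. The main macrophages had 10, 7 and 47 UMIs (0.90, 0.49 and 2.39 CPM), below the 35.1 to 37.1 CPM of the free RNA, and 14 of the 47 UMIs lay in a single cell. The ratio between the tumours was 4.93-fold (log2 2.30, interval 1.15 to 3.69), but its sign turned under 3 alternatives. It was log2 -0.04 at a finer clustering and -0.75 where libraries were clustered one by one, both on too few UMIs to be read. With all macrophage clusters joined it was -0.20 and not called. A 10% share of free RNA exceeds the Vegfa level of the main macrophages in all 3 libraries, so it cannot be told apart from background.

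Both receptors were low in the main macrophages. Met, the HGF receptor, had 3, 3 and 79 UMIs in the main macrophages (0.27, 0.21 and 4.02 CPM), a ratio of 19.3 between the tumours (log2 4.27, interval 2.67 to 6.58). The PPARγ-/- level was still below the 10.7 CPM of its free RNA, 10% of which would account for 26.6% of it. With the mitochondrial limit at 5% the log2 ratio was 2.68. Igf1r, the IGF-1 receptor, had 40, 20 and 79 UMIs (3.62, 1.39 and 4.02 CPM), lower in WT tumour than in WT healthy (log2 -1.38, interval -2.24 to -0.58) and higher in PPARγ-/- tumour than in WT tumour (log2 1.54, interval 0.81 to 2.32). Neither Igf1r call held under every alternative. With the mitochondrial limit at 5% the log2 ratios were -0.70 and -0.13, and with all macrophage clusters joined -0.51 and 0.39, none of them called. Interstitial macrophages had Igf1r at 29.9, 22.6 and 36.4 CPM on 14, 35 and 11 UMIs.

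Of the 6 genes with enough UMIs in the main macrophages of WT healthy and WT tumour, 3 were higher in WT tumour (Spp1, Igf1 and Hgf) and 1 was lower (Igf1r). Of all 11497 genes read in that comparison 7.33% were called higher and 15.6% lower. Between PPARγ-/- tumour and WT tumour all 9 genes were read, 8 were higher and Tgfb1 was neither, against 15.2% of 12062 genes called higher and 18.2% lower. The median log2 ratio was 2.30 over the 9 genes and -0.13 over all genes in the latter comparison, and 0.23 over the 6 genes read and -0.16 over all genes in the former. The value of 2.30 is the ratio of Vegfa, whose level cannot be told apart from background. Among the 8 genes called higher, the calls of Vegfa and Igf1r were each lost under 4 alternatives. Both comparisons share the WT tumour library. Sex cannot be told apart from tumour in the former, since the healthy cells read as female, and a list of 12 dissociation stress genes, chosen with the data in view, summed to 2218, 1169 and 1470 CPM in the main macrophages. The interstitial markers moved with the latter comparison, and the part of either list in the result was not tested.

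**Figure D2:**
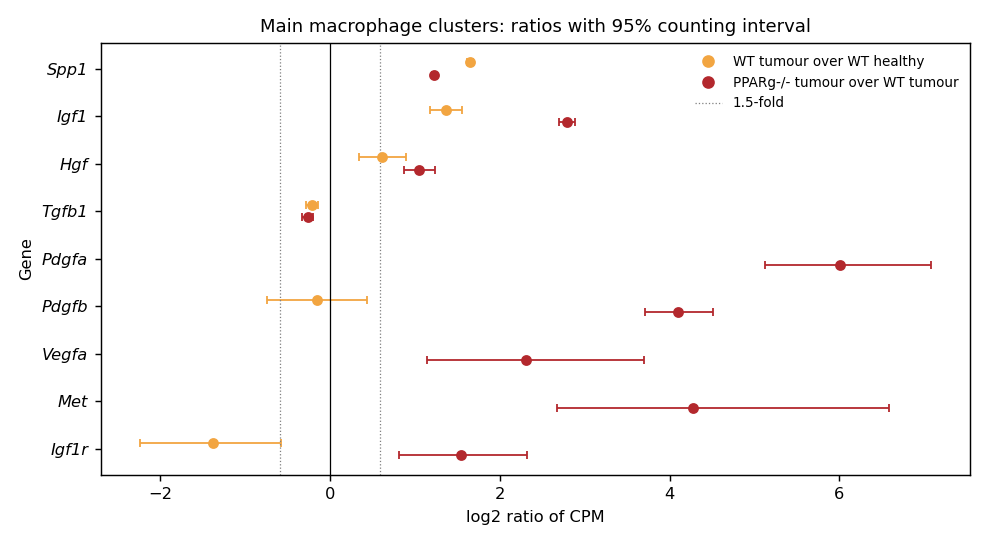
log2 ratios of CPM in the main macrophages with 95% counting intervals, for the genes with at least 20 UMIs over both libraries. Dotted lines mark 1.5-fold. Tgfb1 lies between them in both comparisons, and Pdgfa, Met and Pdgfb have the ratios farthest to the right for PPARγ-/- tumour over WT tumour.

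The PPARγ-/- macrophages were not uniform. A finer clustering, also drawn without the 9 genes, split the 1156 main macrophages into 528 and 628 cells with median depths of 15720 and 17270 UMIs. Spp1 was at 3104 CPM (3067 to 3142) in the 528 cells and at 6821 CPM (6772 to 6869) in the 628. Igf1 did not follow it, at 489 CPM (474 to 504) and 478 CPM (466 to 491), intervals that overlap. Hgf and Pdgfb ran the other way, with 65.2 and 94.5 CPM in the 528 cells against 35.0 and 43.0 CPM in the 628, while Pdgfa was at 38.0 and 49.9 CPM. The 528 cells had the higher interstitial marker sum (21979 against 16864 CPM) and the lower alveolar one (12158 against 15078 CPM), and they held 43 of the 47 Vegfa UMIs.

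A further 80 cells of the PPARγ-/- library clustered with the WT tumour macrophages. They had Spp1 at 813 CPM, Igf1 at 176 CPM and Hgf at 36.0 CPM, with 5 UMIs of Pdgfa and 6 of Pdgfb. Against them the 1156 main cells of the same library were higher in Spp1 (6.41-fold, log2 2.68, interval 2.58 to 2.78), Pdgfb (10.9-fold, log2 3.44, interval 2.32 to 4.89), Pdgfa (8.95-fold, log2 3.16, interval 1.93 to 4.79) and Igf1 (2.74-fold, log2 1.46, interval 1.24 to 1.68). Of all 11358 genes read in this comparison within the library, 8.49% were higher and 18.0% lower. Hgf, Tgfb1, Igf1r and Vegfa passed in neither direction, and Met had 0 UMIs in the 80 cells. Pparg itself was at 283 CPM in the 80 cells and 376 CPM in the main cells, against 195 and 173 CPM in the WT libraries. A 3′ end count can read the transcript of a deleted allele, so these values do not check the deletion.

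**Figure D3:**
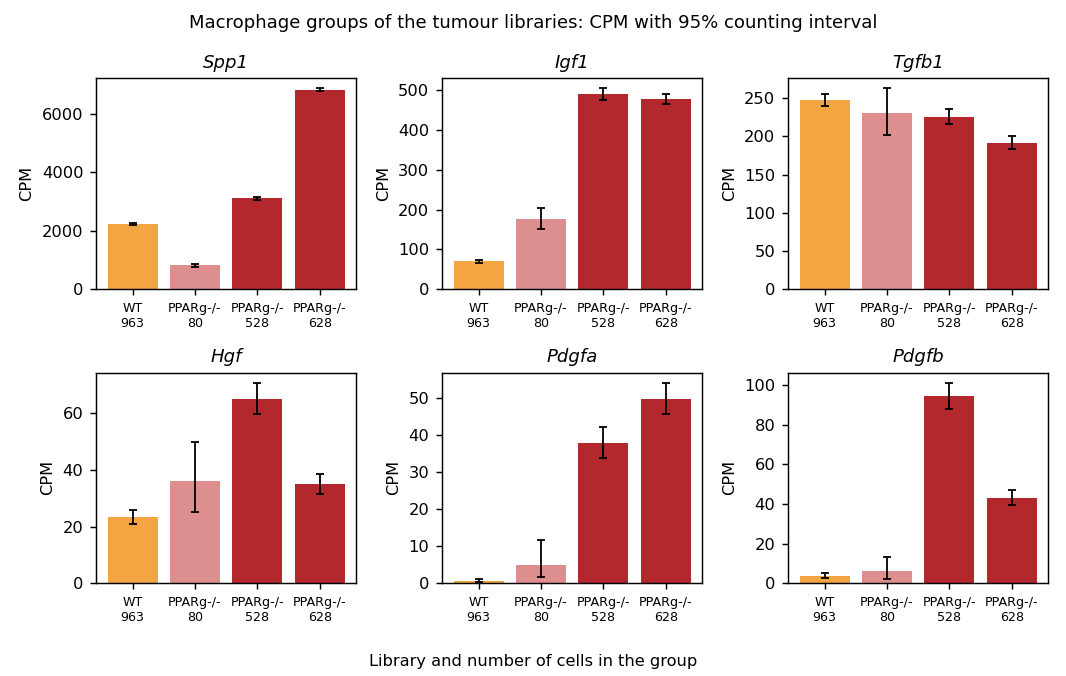
CPM of 6 genes in 4 groups of macrophages of the tumour libraries: the 963 WT tumour main macrophages, the 80 PPARγ-/- cells that clustered with them, and the 528 and 628 cells of the PPARγ-/- main cluster. Bars start at 0 and carry 95% counting intervals. Spp1 is highest in the 628 cells, Hgf and Pdgfb in the 528, and Igf1 has overlapping intervals in these groups.

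Beyond the main macrophages, endothelial cells had the highest level of Pdgfb, whose product recruits pericytes, and of Igf1r in all 3 libraries. Endothelial Pdgfb was at 492, 893 and 695 CPM, 1.81-fold higher in WT tumour than in WT healthy (log2 0.86, interval 0.71 to 1.01). Endothelial Vegfa ran opposite, at 378, 230 and 286 CPM, lower in WT tumour by 1.65-fold (log2 -0.72, interval -0.95 to -0.49). Endothelial Igf1r was at 133, 102 and 131 CPM without a call in either comparison, and its interval in WT tumour overlapped that of the mixed epithelial cluster at 82.2 CPM. Endothelial Pdgfa was at 39.3, 20.6 and 43.2 CPM on 43, 23 and 59 UMIs, lower in WT tumour than in WT healthy (log2 -0.94, interval -1.73 to -0.17) and higher in PPARγ-/- tumour than in WT tumour (log2 1.07, interval 0.36 to 1.84). Both Pdgfa calls were lost with the mitochondrial limit at 5% (log2 -0.49 and 0.57), and the latter also with libraries clustered one by one (log2 0.58). Of 7 genes read in endothelium 1 was higher and 3 were lower in WT tumour than in WT healthy, against 5.77% and 6.52% of all genes. Between the tumours 2 were higher and none was lower, against 4.32% and 3.56%. Spp1 was 1 of the 3 lower and 1 of the 2 higher genes, at 126, 28.6 and 76.2 CPM. Free RNA held Spp1 at 1531 CPM in WT tumour and 3005 CPM in PPARγ-/- tumour. A 10% share of it exceeds both endothelial tumour levels, so these cannot be told apart from background.

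Nonclassical monocytes had Pdgfb at 120, 138 and 380 CPM, 2.74-fold higher in PPARγ-/- tumour than in WT tumour (log2 1.46, interval 1.26 to 1.66). Different clusters held most of this class in WT healthy and in the tumours, and the step was there in both: 142 against 359 CPM in one cluster and 134 against 391 CPM in the other. Of 6 genes read in these monocytes 1 was higher, Pdgfb, and 1 was lower, Vegfa on 18 and 12 UMIs, against 4.52% and 4.59% of all genes. Between the WT libraries 1 of 6 was higher, Spp1 at 8.34 and 39.6 CPM, and none was lower, against 4.64% and 6.26%.

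Interstitial macrophages had Pdgfb at 167, 337 and 318 CPM, 2.02-fold higher in WT tumour than in WT healthy (log2 1.02, interval 0.67 to 1.38). Their Spp1 was at 55.6, 298 and 43.1 CPM, so the 194 WT tumour cells stood above the 53 healthy and 54 PPARγ-/- cells (log2 2.42 over WT healthy, and -2.79 for PPARγ-/- tumour over WT tumour, interval -3.71 to -2.01). Of the 463 Spp1 UMIs in the WT tumour cells 98 lay in 1 cell, and 10% of free RNA would account for 51.3% of the level there and for all of it in PPARγ-/- tumour. Of 8 genes read in this class 2 were higher and none was lower in WT tumour than in WT healthy, against 4.00% and 9.73% of all genes. Between the tumours none was higher and 2, Spp1 and Vegfa, were lower, against 4.03% and 3.68%. The Vegfa call rests on 31 UMIs against 1 and was lost under 5 of 8 alternatives, with a log2 ratio of -0.38 without the cell with the most UMIs. The Spp1 call between the tumours was lost with a minimum of 2000 UMIs per cell (log2 -0.23).

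The epithelium held most of the Met. AT2 cells, the surfactant-producing cells of the alveolus, were numerous enough in the tumour libraries alone (186 and 177 cells) and had the highest Met, at 130 and 107 CPM, a difference within 1.5-fold. Of the classes with at least 50 cells in WT healthy, classical monocytes had the highest Met at 28.8 CPM (18.8 to 42.1). AT2 cells held 78.6% and 71.8% of all Met UMIs of the tumour libraries while making up 4.36% and 3.54% of the cells. AT2 Pdgfa was at 54.9 and 60.2 CPM. AT2 Vegfa was at 116 and 67.6 CPM, lower in PPARγ-/- tumour by 1.72-fold (log2 -0.78, interval -1.05 to -0.51). An epithelial cluster of WT tumour with markers of more than 1 epithelial type (161 cells) had Vegfa at 391 CPM and Pdgfa at 148 CPM, the highest of any class in that library. Of 8 genes read in AT2 cells 2 were higher (Spp1 and Igf1) and 1 was lower in PPARγ-/- tumour, against 3.34% and 5.91% of all genes. Of the 188 Spp1 UMIs there 122 lay in 1 cell, and Igf1 had 22 UMIs against 2, while free RNA held 232 CPM of Igf1.

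In several classes outside macrophages Spp1 lay within what free RNA could supply. Free RNA, read from barcodes with 10 to 100 UMIs, had Spp1 at 436, 1531 and 3005 CPM, and T cells had 6.23, 40.7 and 64.1 CPM, a level that a 10% share of free RNA exceeds in every library. Of 4 genes read in T cells 2 were higher in WT tumour than in WT healthy (Spp1 and Pdgfb, the latter on 37 and 8 UMIs), and none was lower, against 7.65% and 4.18% of all genes. Between the tumours 2 of 6 were higher (Spp1 and Igf1) and none was lower, against 1.83% and 4.92%. T cell Igf1 was at 0.45 and 5.27 CPM on 2 and 24 UMIs in WT tumour and PPARγ-/- tumour. Free RNA held it at 32.7 and 232 CPM, so the 10% share exceeds both levels. Dendritic-like cells had Spp1 at 18.7, 140 and 77.0 CPM, also under the 10% share. Of 5 genes read in them, 1, Spp1, was higher in WT tumour than in WT healthy and none was lower (7.49% and 7.19% of all genes), and between the tumours 1, again Spp1, was lower and none was higher (3.75% and 3.03%). The former call was lost with doublets kept (log2 -0.24) and the latter with the mitochondrial limit at 5% (log2 -0.16). In classical monocytes Spp1 was at 12.2 and 66.0 CPM in the WT libraries, also under the 10% share. It was 1 of 6 genes called higher in WT tumour than in WT healthy, and none was lower (4.15% and 5.25%). None of 4 was called between the tumours (4.69% higher and 3.33% lower). In B cells none of 1 was called between the WT libraries (7.92% higher and 6.41% lower) and none of 2 between the tumours (3.50% and 7.37%). The healthy endothelial Spp1 of 126 CPM was above the 10% share, with 46 of its 138 UMIs in 1 cell.

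**Figure D4:**
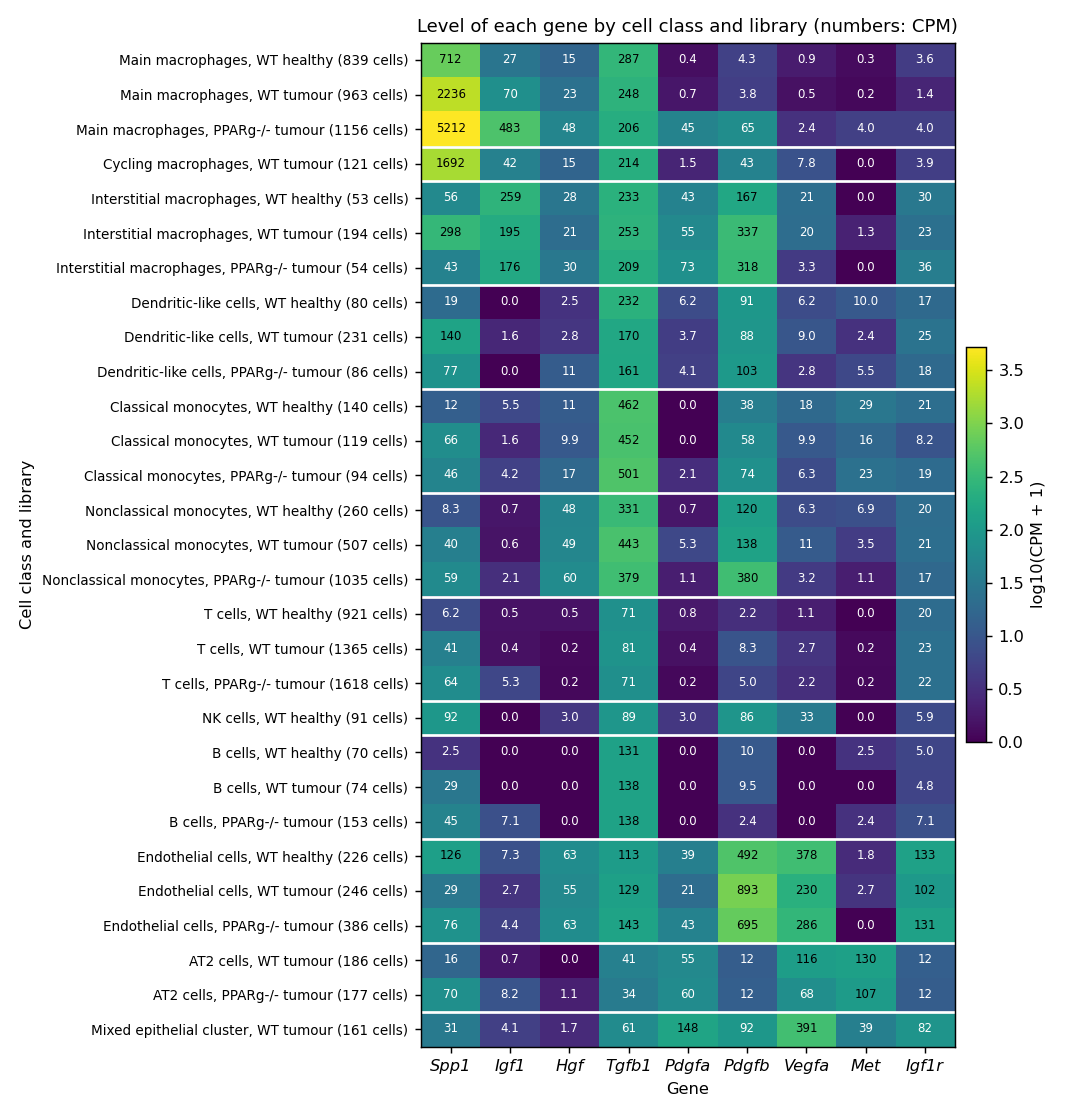
Level of each of the 9 genes in the cell classes with at least 50 cells in a library, as log10(CPM + 1) in colour and as CPM in numbers. The other alveolar macrophages are not shown. Spp1 and Igf1 are brightest in macrophages, Tgfb1 in monocytes and macrophages, Pdgfb and Igf1r in endothelial cells, Met in AT2 cells, and Vegfa in endothelial cells and the mixed epithelial cluster.

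Main macrophages held 83.8%, 85.0% and 97.2% of the Spp1 UMIs of their libraries and 51.1%, 63.8% and 95.4% of the Igf1 UMIs, on 48.4%, 42.6% and 54.4% of all UMIs in cells. For Pdgfa their share was 69.5% in PPARγ-/- tumour. For Pdgfb it was 32.3% there, next to 35.6% in nonclassical monocytes and 23.9% in endothelium. These shares depend on the sorted mixture and do not describe the lung as a whole.

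Receptors of these ligands were followed to the class with the highest level. Kdr, Flt1 and Nrp1, which bind VEGF-A, were highest in endothelium in every library (Kdr at 813, 777 and 1024 CPM, Flt1 at 865, 937 and 920 CPM, Nrp1 at 899, 802 and 1019 CPM). Pdgfra, the receptor for PDGF-A, had at most 6 UMIs and 2.50 CPM in any class described. Pdgfrb was highest in the endothelial class at 79.6, 2.68 and 21.2 CPM (87, 3 and 29 UMIs). Few cells carried it: 13 of 226, 3 of 246 and 8 of 386 had a UMI, and the 10 cells with the most held 84 of the 87 in WT healthy. Fibroblasts were too few to describe, with 7, 7 and 6 cells. Tgfbr1 was highest in interstitial macrophages at 327, 384 and 305 CPM. Tgfbr2 was highest in the main macrophages of both WT libraries at 331 and 389 CPM, and in the other alveolar macrophages of PPARγ-/- tumour at 269 CPM. Of the osteopontin receptors, Cd44 was highest in the main macrophages of WT tumour at 1185 CPM. In WT healthy and PPARγ-/- tumour it was highest in the other alveolar macrophages, at 1907 and 1259 CPM, with 1758 CPM in the main macrophages of WT healthy. Itgb5 was highest in interstitial macrophages at 199, 329 and 278 CPM. Itgav was highest in nonclassical monocytes of WT healthy (106 CPM) and PPARγ-/- tumour (160 CPM) and in the mixed epithelial cluster of WT tumour (167 CPM), and Itgb3 did not pass 28.4 CPM in any class.

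Around the 9 genes, 72 further ligands, receptors, binding proteins and targets of the same pathways were listed by role. In the main macrophages 37 were read between WT healthy and WT tumour, of which 7 were higher and 10 lower (median log2 -0.28). Over all genes read, 7.33% were higher and 15.6% lower (median log2 -0.16). The 3 highest ratios were those of Tgfb2, a second TGF-β ligand (1.99 and 8.95 CPM, log2 2.17), Pgf, placental growth factor (1.63 and 7.21 CPM, log2 2.15), and Igf2r, which clears IGF-2 (0.90 and 3.05 CPM, log2 1.75). Among the lower were Ltbp3, which anchors latent TGF-β (17 and 7 UMIs, log2 -1.66), and Kdr (15 and 7 UMIs, log2 -1.48). Kdr stood at 1.36 and 0.49 CPM, and free RNA held it at 38.5 and 8.86 CPM. A 10% share of free RNA exceeds both Kdr levels, so they cannot be told apart from background.

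Between the tumours 38 of the 72 were read, 14 were higher and 8 lower in PPARγ-/- tumour (median log2 0.19). Over all genes read, 15.2% were higher and 18.2% lower (median log2 -0.13). The highest were Eng, a TGF-β co-receptor (0.90 and 14.8 CPM, log2 4.03), Igf2r (3.05 and 36.4 CPM, log2 3.58) and Smad7, an inhibitor of TGF-β signalling (4.02 and 24.6 CPM, log2 2.61). The lowest were Pgf (7.21 and 0.41 CPM, log2 -4.15), Tgfbr2 (389 and 131 CPM, log2 -1.57) and Insr, the insulin receptor (77.9 and 26.4 CPM, log2 -1.56). The osteopontin receptors parted: of 5 read, 3 were higher and 1 was lower. Itga4 was at 50.2 and 227 CPM (log2 2.18), Itgb5 at 95.02 and 260 CPM (log2 1.45) and Itga5 at 25.1 and 61.9 CPM (log2 1.30), while Cd44 was at 1185 and 416 CPM (log2 -1.51). Among the HGF-related genes Plau, the protease urokinase, was at 11.5 and 34.4 CPM (log2 1.58).

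Over the 31 combinations of class and library, the genes whose log2(CPM + 10) ran most like each of the 9 were found among 12960 genes. These are descriptive correlations across units that share libraries and depth. Spp1 ran closest to Ctsk (r = 0.92), Cd200r4 and Slc7a2, Igf1 to Adam33 (r = 0.92), Trem2 and Ctsf, and Tgfb1 to Nrros (r = 0.96), Tor1aip1 and Trps1. Nrros encodes a protein that holds latent TGF-β1 on myeloid cells, and Trem2 a lipid receptor of macrophages. Vegfa ran closest to Lhfp (r = 0.96), Timp3 and Igfbp7, Pdgfa to Gas6 (r = 0.92), Cadm1 and Abcc3, and Pdgfb to Hpgd (r = 0.92), Wasf2 and Arrb1. Met ran closest to Ptgs2os2 (r = 0.93), Arg2 and Rhou, Hgf to Hip1 (r = 0.84), Mef2a and Sh3glb1, and Igf1r to Nisch (r = 0.88), Ctdsp2 and Mill2.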

How the data were processed

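Each library was deposited as a matrix of whole-number UMI counts, unnormalised. Tools named in the submitters' processing notes are Cell Ranger 6.0.1 and Seurat 4.0.1 with build mm10, while the file headers name Cell Ranger 4. The kit was a 3′ v2 kit per the labels' protocols. Barcodes with at least 1000 UMIs, 500 genes and at most 10% mitochondrial UMIs were kept (2947, 4374 and 5137), and Scrublet doublets (1.80%, 2.42% and 2.76%) were removed for the classes. With scanpy 1.11.5, cells of all libraries were clustered without integration on 2000 variable genes, 30 components, 15 neighbours and Leiden resolution 1, leaving out the 9 genes, the pathway genes, Pparg and sex-linked genes. A cluster was named from at least 3 raised markers of 23 lists. Pairs of libraries shared 4 to 6 barcodes, which were kept.

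UMIs were summed per class and library and given as CPM with exact Poisson intervals. Ratios have exact conditional binomial (Clopper-Pearson) intervals, as do shares of cells, all at 95%. A count of 0 is set to a floor of 3 counts in ratios. Pathway genes named are the 3 highest and 3 lowest ratios in each comparison and the top class of set receptors; Itga4, Itga5, Itgb5, Cd44 and Plau between the tumours were added after their values were seen. 1 gene that this rule names is not reported here. The ratio calculation was tested on simulated counts with counting error only, which cannot check the spread between cells or mice. The genes, lists and classes were chosen with earlier results of these data known. The split of the PPARγ-/- cluster and the comparison within that library were chosen after seeing the data. Alternatives changed cell filters, doublets, clustering, normalization, free RNA, single cells and the calling rule.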

Additional observations from a re-analysis of the deposited data

Results flagged for a closer look

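Some ratios ran in opposite directions in the main macrophages and in another class. None of these differences was tested, since each group has 1 library. Spp1 was higher in the main macrophages and lower in endothelial cells of WT tumour than of WT healthy, log2 ratios of 1.65 and -2.14 that differ by 3.79. The endothelial level in WT tumour, 28.6 CPM on 32 UMIs, is exceeded by a 10% share of free RNA, which held Spp1 at 1531 CPM. Between PPARγ-/- tumour and WT tumour, Spp1 was higher in the main macrophages (1.22) and lower in interstitial macrophages (-2.79) and dendritic-like cells (-0.86), differences of 4.01 and 2.08. The interstitial call was lost with a minimum of 2000 UMIs per cell (-0.23) and the dendritic-like call with a mitochondrial limit of 5% (-0.16). Vegfa was called higher in the main macrophages of PPARγ-/- tumour (2.30) and lower in interstitial macrophages (-2.59), nonclassical monocytes (-1.72) and AT2 cells (-0.78), differences of 4.89, 4.03 and 3.08. The main macrophage ratio of Vegfa was itself -0.04 at a finer clustering and -0.75 with libraries clustered one by one, both on too few UMIs to be read. With all macrophages together it was -0.20 and not called, so these values give no direction. The interstitial call was lost under 5 of 8 alternatives. The AT2 value rests on 338 and 182 UMIs in WT tumour and PPARγ-/- tumour, the main macrophage value on 7 and 47, the interstitial value on 31 and 1 and the monocyte value on 18 and 12.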

How the results depend on the processing

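No paired analysis was possible because each group has 1 library. In the main macrophages the Spp1, Igf1, Hgf, Pdgfa, Pdgfb and Met calls between the tumours and the Spp1 and Igf1 calls between the WT libraries kept their direction and call under each alternative that recomputed them. The count of genes lower in WT tumour than in WT healthy was 1, and became 0 with a 5% mitochondrial limit and with all macrophage clusters together, and 2 with doublets kept and with each library clustered alone. Over the other classes, 37 pairs of gene and class were read between the WT libraries. Of these 8 were higher in WT tumour (14 with each library clustered alone, 4 with 10% of free RNA subtracted). A further 3 were lower (6 by the mean of per-cell CPM). Over all genes read, 4.00% to 7.92% were higher and 4.18% to 9.73% lower, by class. Between the tumours 46 pairs were read, of which 7 were higher (11 with doublets kept, 2 with free RNA subtracted). A further 5 were lower (8 with a 5% mitochondrial limit, 9 with each library clustered alone, 8 by the mean of per-cell CPM). Over all genes read, 1.83% to 4.69% were higher and 3.33% to 7.37% lower, by class. The number of genes with their highest level in a macrophage class of WT healthy was 3, and 1 with the 5% limit. Called ratios that turned sign were those of Vegfa between the tumours in the main macrophages (-0.044 at a clustering resolution of 2, -0.75 with each library clustered alone, -0.20 with all macrophages together), Igf1r there (-0.13 with the 5% limit) and Spp1 of dendritic-like cells between the WT libraries (-0.24 with doublets kept). Pdgfb of the main macrophages between the WT libraries, not called at -0.16, was 0.0073 centred, 0.079 without the top cell and 1.59, called higher, with all macrophages together. The Hgf call between the WT libraries was lost with the 5% limit, with doublets kept, at resolution 2, with all macrophages together and where libraries were clustered one by one. In other classes, calls lost under 1 or 2 alternatives were Pdgfa of endothelium in both comparisons, Spp1 of dendritic-like cells in both, and, between the tumours, Spp1 of interstitial macrophages and T cells, Igf1 of T and AT2 cells and Vegfa of nonclassical monocytes, and under 5 that of interstitial Vegfa. The alternatives also changed which cells were compared. The PPARγ-/- main cluster held 628 cells at resolution 2, 582 with libraries clustered alone and 637 with a minimum of 2000 UMIs, against 1156. With the 5% limit it held 472, and the main macrophages of WT healthy and WT tumour were 193 and 234 cells of 1 joint cluster. The cause of the lost calls was not tested. Pools of 3 mice read as 1 library per group limit every comparison, and genes under 20 UMIs could not be read.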
